A study of Mus musculus with 11 samples.

Results

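The genes described here are the ligands, receptors, Smads and regulators of TGF-beta and BMP signalling in the hypothalamus, together with Zfyve9, an endosomal adaptor of the pathway. They were matched by gene symbol, as genes of the Tgfb, Bmp, Smad, Acvr, Smurf, Inha and Inhb, Gdf and Ltbp families and the genes Zfyve9, Nog, Fst and Chrd with its relatives. The rule was set with earlier results of these data known, and Zfyve9 is the only Zfyve gene in it. This rule matched 64 of 19987 named genes on the array. A gene was tested when a probe was well above background, by the flag of the scanner software, on at least 5 of 11 arrays, which held for 61 members among 17188 genes. Of the 61 members, 59 were well above background on every array. Bmp15, Gdf2 and Gdf6 were below this limit and were not tested. Each gene is represented by its brightest probe unless probes are named.

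The samples were hypothalami of male C57BL/6N mice at postnatal day 21, each on its own single-colour array. The HFD group held 6 offspring of dams on a high-fat diet, and the CO group held 5 offspring of dams on standard chow, marked SD in the sample titles. Dams received their diet before conception and through gestation and lactation, so pups of the HFD group were exposed in the womb and by milk. The labels do not say which samples came from different litters, and the p-values therefore measure the spread between these samples. In tissue RNA, fewer cells of a type and less RNA per cell cannot be told apart.

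Ligands of this superfamily bind pairs of type I and type II receptor kinases at the cell surface. The type I receptor then phosphorylates receptor-regulated Smads, with Smad2 and Smad3 serving TGF-beta, activin and Nodal receptors and Smad1, Smad5 and Smad9 serving BMP receptors, and these enter the nucleus with Smad4. Secreted antagonists such as noggin, chordin and follistatin hold ligands away from receptors, while Smad6, Smad7 and the Smurf ubiquitin ligases switch the signal off. In the brain these pathways are known for patterning the neural tube, for the balance of neurons and glia, and for the response of glia to injury.

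Diet and array processing ran together in these samples. The 6 HFD arrays were scanned 337 days after the 5 CO arrays, on other slides and with another version of the extraction protocol, so maternal diet and scan session cannot be told apart in any result below. HFD arrays had 71.8 to 77.4% of their spots well above background and CO arrays 82.5 to 85.7%, and HFD arrays were brighter at the 75th percentile, with 3135 to 3447 intensity units against 2216 to 2932 on CO arrays. Levels are given as log2 of the processed signal minus the 75th percentile of the array, so a level of 0 is a signal at that percentile and a difference of 1 is a 2-fold difference. On this scale spike-in control RNA lay 0.67 higher in HFD (p = 0.00216 in a two-sided exact permutation test, the lowest value that 462 splits allow). Among markers of brain regions, the mean level of 12 striatal genes was -0.31 to 1.07 on HFD arrays and 0.32 to 2.42 on CO arrays, and 9 of these genes fell and none rose in HFD. Of 10 thalamic markers 6 rose and 1 fell. Their mean level was -0.30 to 0.09 on HFD arrays and -0.90 to -0.35 on CO arrays. Of 26 hypothalamic markers, 24 of them well above background on every array, 7 rose and 4 fell. The rises include Sim1, which was well above background on all 6 HFD arrays and on no CO array. Among markers of cell types, 7 of 10 oligodendrocyte genes fell and 1 rose, with a mean level of 2.98 to 3.26 on HFD arrays and 3.12 to 3.47 on CO arrays. Of 12 neuronal genes 6 rose and 2 fell (3.91 to 4.10 on HFD arrays and 3.68 to 3.80 on CO arrays), and of 3 tested red blood cell genes 2 fell and none rose (0.40 to 0.94 and 0.99 to 1.25). Marker counts, here and below, are to be read beside 22.2% of all genes that rose and 44.1% that fell. The part of these markers in the results below was not tested, apart from a fit without the CO arrays of highest striatal level.

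Of the 61 members, 18 rose and 26 fell in HFD, and 17 did not pass the test (limma, adjusted p under 0.05 over all genes tested). The share called was 72.1%, beside 66.4% of all genes tested. It was 29.5% for higher calls, beside 22.2% of all genes, and 42.6% for lower calls, beside 44.1%. The HFD and CO samples did not overlap for 24 members, with HFD above CO for 9 and HFD below CO for 15; this is 39.3% of the members, beside 46.6% of all genes. A called difference of at least 2-fold was found for 7 members, or 11.5%, beside 15.6% of all genes. Bmp10, well above background on 3 of 6 HFD arrays, is among the falls, the members without overlap and these 7. Among the 59 members well above background on every array, 18 rose and 25 fell. Of these 59, 39.0% had no overlap and 10.2% a called difference of at least 2-fold. The median difference was -0.20 over the members and -0.17 over all genes. As a group, then, the members were called about as often as the array as a whole, and the values below are those of single genes and of roles within the pathway.

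**Figure D1:**
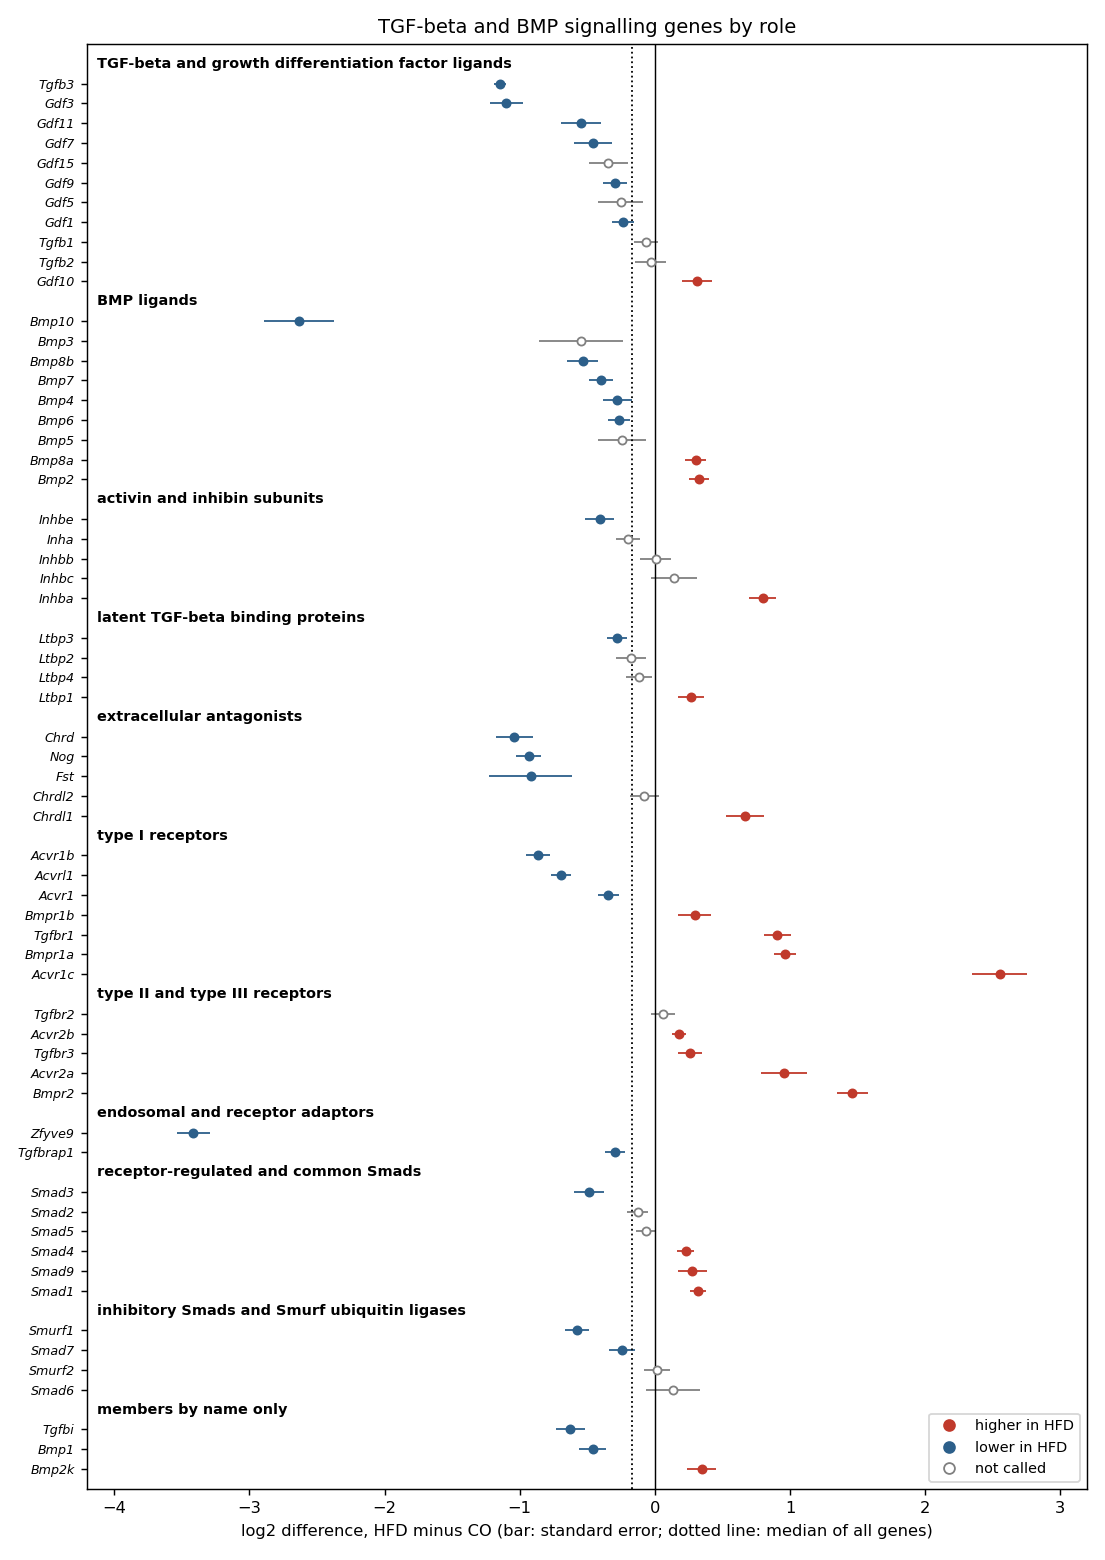
Log2 difference, HFD minus CO, of the 61 members grouped by role, with the standard error as a bar (6 HFD and 5 CO samples). Filled points passed the test (red higher, blue lower in HFD), open points did not, and the dotted line marks the median of all genes at -0.17; Zfyve9 lies farthest to the left at -3.42 and Acvr1c farthest to the right at 2.55.

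Counts by role, here and below, are to be read beside 22.2% of all genes that rose and 44.1% that fell. Of 12 receptor genes 8 rose, 3 fell and 1 was not called, with a median difference of 0.28 that turned to -0.39 when arrays were scaled to the spike-in RNA. Of 25 ligand genes, counting TGF-beta, GDF, BMP and activin or inhibin genes, 4 rose, 12 fell and 9 were not called, with a median of -0.26, or -0.94 in that scaling. The ligand counts lay near the shares of all genes. Of 10 Smad and Smurf genes 3 rose, 3 fell and 4 were not called. The roles were compared only by these counts, and the difference between them was not tested. Ligand genes were also the dimmer ones: 10 of the 25 were among the 4297 dimmest genes by mean level, of which 55.2% fell and 14.2% rose, while none of the 12 receptor genes was among them. Of the next 4297 genes, which held 28 members, 40.4% fell and 27.3% rose.

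Zfyve9 showed the largest difference of the members. It encodes SARA, a FYVE-domain protein of early endosomes that brings Smad2 and Smad3 to the activated TGF-beta receptor. Its level was -4.44 at the lowest, -3.96 at the median and -3.86 at the highest in the 6 HFD samples, against -0.77, -0.72, -0.78, -0.28 and -0.70 in the CO samples. Every HFD sample was far below every CO sample, and the gap between the groups was several times the spread within either. The fall was 3.42 ± 0.12 on the log2 scale (SE, adjusted p = 1.33e-08), a 10.7-fold lower signal. A single probe on the array reported Zfyve9, and it was well above background on each of the 11 arrays. The call held in all 25 other ways of processing, with values of -3.53 to -2.82 and a value of -4.09 when arrays were scaled to the spike-in RNA. With the 2 CO samples whose striatal marker level lay within the HFD range, the difference was -3.53 ± 0.18 (SE, adjusted p = 4.93e-06).

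The array design files give no probe sequence here, so the 250 bases before the annotated start are printed for 3 genes with large differences of opposite sign, Zfyve9 lower and Acvr1c and Bmpr2 higher in HFD. The sequences are from RefSeq on GRCm38.p6, which listed a promoter for 44 of the 61 members. Zfyve9 is at chr4:108781089-108781338 on the minus strand, Acvr1c, by the upstream one of its 2 listed starts, at chr2:58357759-58358008 on the minus strand, and Bmpr2 at chr1:59764029-59764278 on the plus strand.
Zfyve9: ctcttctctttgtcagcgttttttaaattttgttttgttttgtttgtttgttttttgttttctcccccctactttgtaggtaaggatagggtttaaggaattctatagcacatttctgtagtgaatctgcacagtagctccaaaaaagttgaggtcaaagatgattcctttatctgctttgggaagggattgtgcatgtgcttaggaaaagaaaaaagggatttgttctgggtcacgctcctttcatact
Acvr1c: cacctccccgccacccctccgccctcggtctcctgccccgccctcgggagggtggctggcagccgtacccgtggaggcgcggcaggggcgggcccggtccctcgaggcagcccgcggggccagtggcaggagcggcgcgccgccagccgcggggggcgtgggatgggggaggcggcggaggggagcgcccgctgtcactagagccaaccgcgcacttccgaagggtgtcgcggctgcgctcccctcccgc
Bmpr2: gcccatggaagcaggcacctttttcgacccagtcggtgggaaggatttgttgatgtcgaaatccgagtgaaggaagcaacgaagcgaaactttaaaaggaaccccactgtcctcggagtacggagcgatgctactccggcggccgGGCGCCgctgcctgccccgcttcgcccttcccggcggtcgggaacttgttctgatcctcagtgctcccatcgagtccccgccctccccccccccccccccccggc
Capitals mark matches, on either strand, to 3 motifs known for Smad binding, which are the palindrome GTCTAGAC, the shorter CAGAC and the GC-rich GGCGCC; none of these motifs contains another. Over all 32851 promoters of the table these were found in 0.167%, 42.2% and 9.59%. The Zfyve9 and Acvr1c windows held none of the 3, and the Bmpr2 window held GGCGCC once. G and C made up 37.2% of the Zfyve9 window, 79.6% of the Acvr1c window and 64.0% of the Bmpr2 window. A match is a description of letters, and the arrays carry no measurement of binding.

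Among the other adaptors, Tgfbrap1 encodes a protein that binds TGF-beta receptors and Smad4. Its level was -2.29 at the lowest, -2.08 at the median and -1.97 at the highest in HFD samples, and -1.85, -1.80, -1.97, -1.77 and -1.70 in CO samples. The samples of the groups touched without overlapping, and the fall was 0.30 ± 0.07 (SE, adjusted p = 0.00412). It did not pass with the 2 CO samples in the HFD range of striatal markers (-0.25, adjusted p = 0.0867).

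**Figure D2:**
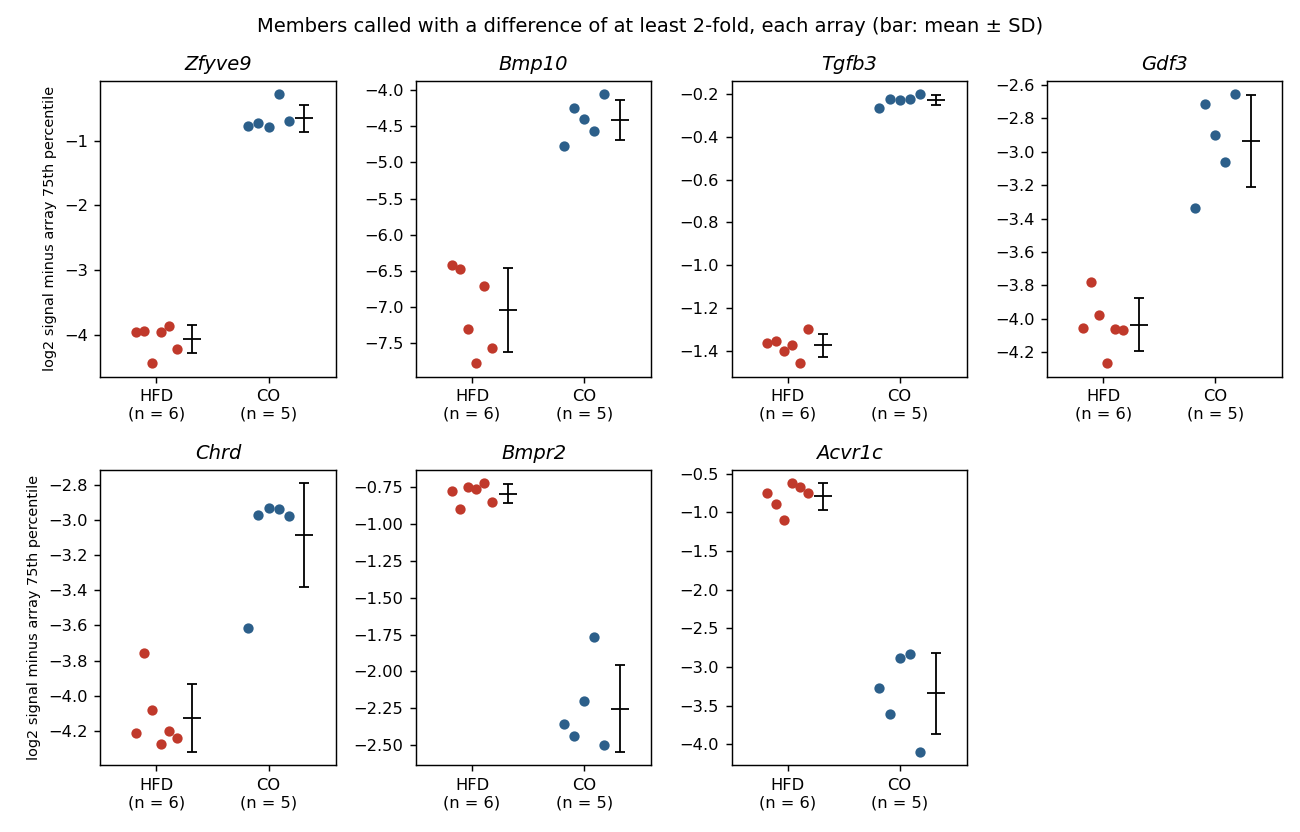
Level of the 7 members called with at least a 2-fold difference in each of 6 HFD and 5 CO samples, as log2 signal minus the 75th percentile of the array; bars are the mean and SD, and each panel has its own scale. In each panel the HFD and CO samples do not overlap, with HFD lower for Zfyve9, Bmp10, Tgfb3, Gdf3 and Chrd and higher for Bmpr2 and Acvr1c. Bmp10 was well above background on 3 of 6 HFD arrays and is shown as a description.

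Type I receptors, the kinases that phosphorylate Smads, moved in both directions, with 4 that rose and 3 that fell among 7. Acvr1c encodes ALK7, a receptor for Nodal, activin B and Gdf3. Its level was -1.09 at the lowest, -0.74 at the median and -0.62 at the highest in HFD samples, against -3.28, -3.61, -2.89, -2.84 and -4.10 in CO samples. All HFD samples were above all CO samples, which varied more among themselves (SD 0.53, n = 5) than the HFD samples did (SD 0.17, n = 6). The rise was 2.55 ± 0.21 (SE, adjusted p = 1.7e-06), or 5.85-fold, and a second probe rose by 2.04 ± 0.14. Within the CO group the 2 samples with the highest Acvr1c, replicates 3 and 4, were the 2 with the lowest striatal marker level (1.00 and 0.32). They were also the 2 CO samples with the highest mean level of thalamic (-0.35 and -0.40), neuronal, meningeal and endothelial markers. Which of these marker levels goes with Acvr1c was not tested. With replicates 3 and 4 as the CO group, the difference was 2.07 ± 0.12 (SE, adjusted p = 1.02e-05).

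Bmpr1a encodes ALK3, the main type I receptor for Bmp2 and Bmp4. It was at -0.41, -0.12 and -0.07 (lowest, median and highest) in HFD samples and at -1.30, -1.17 and -0.99 (likewise) in CO samples, with no overlap. The rise was 0.96 ± 0.08 (SE, adjusted p = 2.9e-06). Tgfbr1 encodes ALK5, the type I receptor of TGF-beta itself. Its level was -0.76, -0.63 and -0.46 (lowest, median and highest) in HFD samples, against -1.63, -1.71, -1.38, -1.20 and -1.67 in CO samples. The samples did not overlap and the rise was 0.90 ± 0.10 (SE, adjusted p = 1.41e-05). A second Tgfbr1 probe lay much lower, at -7.12 to -6.73 in HFD samples and -7.13 to -6.56 in CO samples, and its difference of -0.10 ± 0.11 did not pass. Bmpr1b, another BMP receptor, had a difference of 0.30 ± 0.12 that passed over genes (adjusted p = 0.0495) and missed the threshold over probes (adjusted p = 0.051); it was 0.09 with the 2 CO samples in the HFD range of striatal markers (adjusted p = 0.58). Leaving out any 1 array other than CO replicate 4 or HFD replicate 5 also ended its call (0.21 to 0.33).

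The 3 type I receptors that fell were Acvr1b, Acvrl1 and Acvr1. Acvr1b encodes ALK4, the activin receptor, and its level was -3.60 to -3.12 in HFD samples against -2.52 to -2.31 in CO samples, a fall by 0.86 ± 0.09 (SE, adjusted p = 9.03e-06). Acvrl1 encodes ALK1, a receptor of vascular endothelium, and was at -1.32 to -1.11 in HFD samples against -0.70 to -0.33 in CO samples, a fall by 0.69 ± 0.07 (SE, adjusted p = 1.02e-05). In neither gene did the groups overlap. Of 13 endothelial and pericyte markers 6 rose and 4 fell, with a mean level of -0.16 to 0.05 on HFD arrays and -0.20 to -0.06 on CO arrays. The fall of Acvr1, which encodes ALK2, was smaller (0.34 ± 0.08, SE), with a few samples in a shared range, and did not pass with the 2 CO samples in the HFD range of striatal markers (-0.29, adjusted p = 0.0686).

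At their brightest probes, type II and type III receptors rose in 4 of 5 genes, and none fell. Bmpr2, the type II receptor of BMP ligands, was at -0.89, -0.77 and -0.72 (lowest, median and highest) in HFD samples, against -2.36, -2.44, -2.20, -1.76 and -2.50 in CO samples. The groups were apart, with HFD samples close together (SD 0.07, n = 6) and CO samples more spread (SD 0.29, n = 5). The rise was 1.46 ± 0.12 (SE, adjusted p = 1.54e-06), or 2.75-fold. Acvr2a, an activin type II receptor, was at -2.19 to -1.87 in HFD samples and at -2.84, -3.27, -2.62, -2.50 and -3.54 in CO samples. Its HFD samples were above all CO samples and the rise was 0.96 ± 0.17 (SE, adjusted p = 0.000443), with 0.75 ± 0.16 at a second probe. In Bmpr2, Acvr2a, Tgfbr1 and Bmpr1a, as in Acvr1c, CO replicates 3 and 4 were the highest CO samples, and each of these genes still passed with those 2 as the CO group, at 1.19, 0.56, 0.68, 0.82 and 2.07. The rises of Acvr2b (0.18 ± 0.05) and of Tgfbr3, the betaglycan co-receptor (0.26 ± 0.09), were small, and neither passed with those 2 CO samples (0.18 and 0.21), nor did Tgfbr3 without CO replicate 2 (0.19). Tgfbr2, the type II receptor of TGF-beta, had a difference of 0.06 ± 0.09 at its brightest probe that did not pass, while a second, dimmer probe fell by 0.44 ± 0.13 (SE, adjusted p over probes = 0.00964) with overlapping samples.

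Among TGF-beta and GDF ligands 1 rose, 6 fell and 4 were not called. Tgfb3 had the smallest standard error of the members. Its level was -1.46 at the lowest, -1.37 at the median and -1.30 at the highest in HFD samples, against -0.26, -0.23, -0.23, -0.22 and -0.20 in CO samples. The fall was 1.15 ± 0.05 (SE, adjusted p = 2.84e-08), or 2.21-fold. Tgfb1 had a difference of -0.07 ± 0.09 and Tgfb2, at its brightest probe, of -0.03 ± 0.11, and neither passed. A second Tgfb2 probe rose by 0.26 ± 0.10 (SE, adjusted p over probes = 0.0344) with overlapping samples. Gdf3, a ligand that signals through Acvr1c, was at -4.27, -4.06 and -3.78 (lowest, median and highest) in HFD samples and at -3.34, -2.72, -2.90, -3.06 and -2.66 in CO samples. These groups were apart as well, and Gdf3 fell by 1.10 ± 0.12 (SE, adjusted p = 1.7e-05).

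At their brightest probes, the remaining GDF genes moved less. They include Gdf11, which limits the output of neural progenitors, and Gdf9, known from the oocyte. Gdf11, Gdf7, Gdf9 and Gdf1 fell by 0.55, 0.46, 0.29 and 0.24, and Gdf10 rose by 0.31, each with overlapping samples. None of these 5 passed with the 2 CO samples in the HFD range of striatal markers, at -0.59, -0.33, -0.30, -0.13 and 0.30. Gdf10 also missed the threshold without CO replicate 1, CO replicate 3 or HFD replicate 2 (0.26 to 0.30) and Gdf1 without CO replicate 2 or 5 (-0.21 and -0.19), and Gdf7 was at -0.06 with quantile normalization (adjusted p = 0.623). Gdf15 and Gdf5 did not pass at their brightest probes, while a second Gdf5 probe fell by 1.12 ± 0.13 without overlap. A second, dimmer Gdf1 probe fell without overlap by 0.85 ± 0.08 (SE, adjusted p over probes = 3.48e-06). A second Gdf7 probe was well above background on 1 of 6 HFD arrays and 5 of 5 CO arrays. Given as a description, it lay 1.16 ± 0.25 (SE) lower in HFD, with overlapping samples. Gdf1 shares a transcript with Cers1, and how far its probes separate them was not tested.

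Of 9 BMP ligand genes 2 rose, 5 fell and 2 were not called. Bmp10, best known from the heart, was close to the background of the array. It was well above background on 3 of 6 HFD arrays and 5 of 5 CO arrays, so it entered the test only through the CO group, where it is high, and its difference is given as a description. Its level was -7.78, -7.00 and -6.41 (lowest, median and highest) in HFD samples and -4.77, -4.24, -4.40, -4.56 and -4.06 in CO samples. No sample of one group reached the other, and the means differed by -2.63 ± 0.26 (SE). With the background removed by a statistical model (normexp) in place of the scanner software, the difference was -1.01 and did not pass. Bmp8b fell by 0.54 ± 0.12 (SE, adjusted p = 0.00177), but did not pass with quantile normalization (-0.25, adjusted p = 0.0846) or normexp (-0.24, adjusted p = 0.65), and its close paralog Bmp8a rose by 0.30 ± 0.08. The 2 transcripts are alike, and how far each probe binds the other was not tested. Bmp7, Bmp4 and Bmp6 fell by 0.40, 0.28 and 0.26, Bmp2 rose by 0.33, and Bmp3 and Bmp5 did not pass. With the 2 CO samples in the HFD range of striatal markers, Bmp4, Bmp6, Bmp2 and Bmp8a did not pass either, at -0.33, -0.32, 0.25 and 0.22. Bmp4 also missed the threshold without CO replicate 1, 2 or 3 or HFD replicate 1, 4 or 5 (-0.28 to -0.21).

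Inhba, the subunit of activin A, rose among the activin and inhibin genes. Its level was -1.78, -1.52 and -1.20 (lowest, median and highest) in HFD samples and -2.26, -2.50, -2.38, -2.15 and -2.28 in CO samples, without overlap. The rise was 0.80 ± 0.10 (SE, adjusted p = 4.04e-05). Inhbe, a subunit known mainly from liver, fell by 0.41 ± 0.11 (SE, adjusted p = 0.00567) with overlapping samples, at a level of -5.62 to -5.41 in HFD samples and -5.53 to -4.84 in CO samples. It did not pass with quantile normalization (-0.11, adjusted p = 0.295) or normexp (-0.13, adjusted p = 0.813). Inha, Inhbb and Inhbc had differences of -0.20, 0.01 and 0.14 that did not pass, and Inhbc was well above background on 2 of 6 HFD arrays and 5 of 5 CO arrays.

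Of the 5 antagonists that bind ligands outside the cell 3 fell, 1 rose and 1 was not called, beside 44.1% of all genes that fell. Chrd encodes chordin, which binds BMPs. Its level was -4.27, -4.21 and -3.76 (lowest, median and highest) in HFD samples, against -3.62, -2.97, -2.93, -2.94 and -2.98 in CO samples. CO replicate 1 lay well below the other 4 CO samples but still above the HFD samples, and the fall was 1.04 ± 0.14 (SE, adjusted p = 5.21e-05). Nog encodes noggin, another BMP trap, and was at -4.43, -4.32 and -4.21 in HFD samples and at -3.72, -3.19, -3.46, -3.37 and -3.20 in CO samples. Its samples did not overlap and it fell by 0.93 ± 0.09 (SE, adjusted p = 6.67e-06), though not with normexp (-0.69, adjusted p = 0.0616). Fst, which encodes the activin trap follistatin, was at -4.67, -4.05 and -3.20 (lowest, median and highest) in HFD samples and at -2.85, -2.46, -3.75, -3.87 and -2.63 in CO samples. It fell by 0.92 ± 0.31 (SE, adjusted p = 0.0206), but CO replicates 3 and 4, the 2 of lowest striatal marker level, lay inside the HFD range. With these 2 as the CO group the difference was -0.22 ± 0.31 (SE, adjusted p = 0.588), and Fst also missed the threshold without CO replicate 2 or CO replicate 5 (-0.76 and -0.80) and with normexp (-0.53). Chrdl1, a chordin relative, rose by 0.67 ± 0.14 (SE, adjusted p = 0.0014) at its brightest probe. A second Chrdl1 probe rose by 0.41 ± 0.10 with overlapping samples, and the dimmest had -0.09 ± 0.16 and did not pass. Chrdl2, another relative, had a difference of -0.08 that did not pass.

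Of the 4 latent TGF-beta binding proteins, which hold secreted TGF-beta in the matrix, 1 rose, 1 fell and 2 were not called. Ltbp3 fell by 0.28 ± 0.07 (SE, adjusted p = 0.00611), with levels of 1.20 to 1.55 in HFD samples and 1.61 to 1.84 in CO samples, and Ltbp1 rose by 0.27 ± 0.10 (SE, adjusted p = 0.0261). The Ltbp1 rise did not pass without CO replicate 1, CO replicate 2, HFD replicate 2 or HFD replicate 6, at 0.22 to 0.25. Nor did it pass with the 2 CO samples in the HFD range of striatal markers (0.23, adjusted p = 0.199). Spike-in scaling aside, its call was lost under 9 of 24 other ways of processing. Ltbp2 and Ltbp4 had differences of -0.18 and -0.12 that did not pass. The probes differed here too: a second Ltbp3 probe did not pass (-0.07 ± 0.06), and a second Ltbp4 probe fell by 0.20 ± 0.06.

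Among receptor-regulated and common Smads 3 rose, 1 fell and 2 were not called, but 2 of these genes gave opposite answers at different probes. At its brightest probe Smad1, a BMP-responsive Smad, was at -1.97, -1.91 and -1.81 (lowest, median and highest) in HFD samples and at -2.33, -2.14, -2.26, -2.10 and -2.25 in CO samples. This probe rose by 0.32 ± 0.06 (SE, adjusted p = 0.000458). The second Smad1 probe was at -4.56, -4.28 and -4.06 in HFD samples and at -3.50, -3.30, -3.47, -3.44 and -3.54 in CO samples, and it fell by 0.84 ± 0.09 (SE, adjusted p over probes = 1.26e-05). Neither probe had overlapping groups, so the direction of Smad1 rests on the choice of probe.

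Smad4, the partner of all receptor-regulated Smads, showed the same split. Its brightest probe was at 1.58, 1.68 and 1.78 (lowest, median and highest) in HFD samples and at 1.49, 1.48, 1.45, 1.31 and 1.55 in CO samples, a rise by 0.23 ± 0.06 (SE, adjusted p = 0.00746). The other probe was at 0.37, 0.63 and 0.83 in HFD samples and at 1.74, 1.45, 1.53, 1.36 and 1.34 in CO samples, a fall by 0.86 ± 0.10 (SE, adjusted p over probes = 2.14e-05). Of 19 members with at least 2 tested probes, 7 had probes with differences of opposite sign and 2, Smad1 and Smad4, had opposite calls. Over the array, 371 of 2434 genes with at least 2 called probes, or 15.2%, had opposite calls. This counts only genes with 2 called probes, whereas the 19 members had 2 tested probes, so the shares are not alike.

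**Figure D3:**
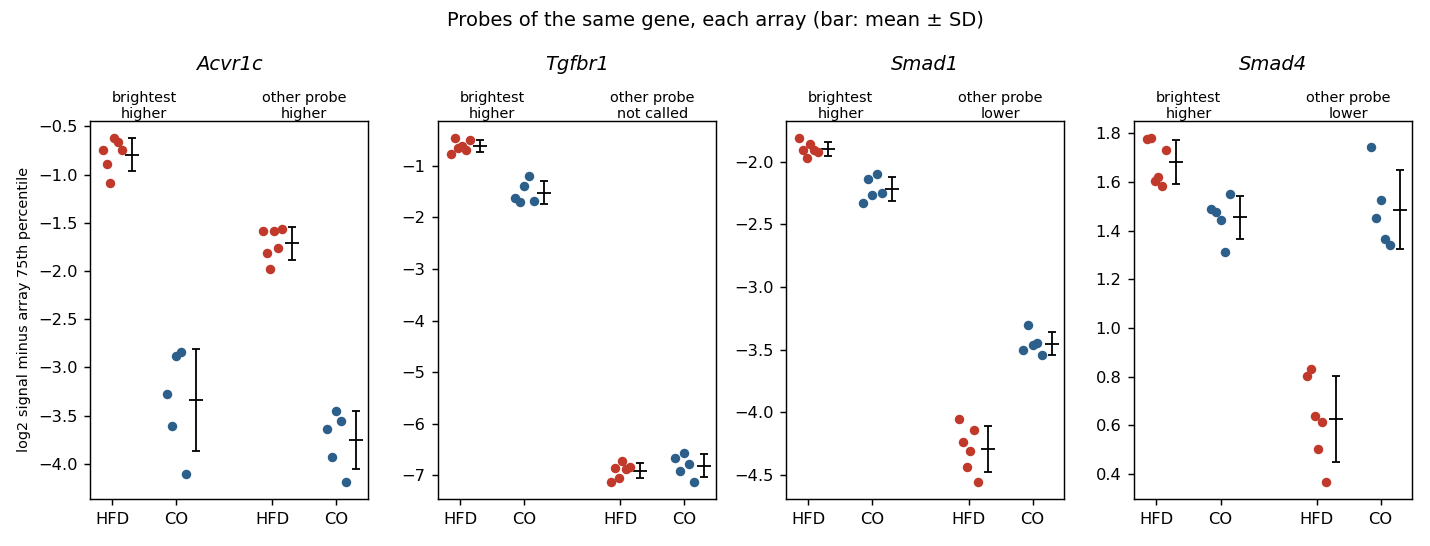
Levels of each probe of Acvr1c, Tgfbr1, Smad1 and Smad4 in 6 HFD and 5 CO samples, as log2 signal minus the 75th percentile of the array, with the mean and SD as bars and the call above each probe. Both Acvr1c probes are higher in HFD, the dim Tgfbr1 probe does not differ past the threshold, and the probes of Smad1 and of Smad4 differ in opposite directions.

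Smad3, which carries TGF-beta and activin signals, was lower at both of its probes. Its level was 0.44, 0.52 and 0.90 (lowest, median and highest) in HFD samples and 1.28, 1.14, 1.18, 0.76 and 1.12 in CO samples, with CO replicate 4 inside the HFD range. The fall was 0.49 ± 0.11 (SE, adjusted p = 0.00252) at the brightest probe. At the other, much dimmer probe it was 0.58 ± 0.17, with overlapping samples. The brightest probe did not pass with the 2 CO samples in the HFD range of striatal markers (-0.36, adjusted p = 0.0903). Its call was also lost with normexp. Smad9, a BMP Smad, rose by 0.28 ± 0.11 (SE, adjusted p = 0.0361), but by 0.11 with those 2 CO samples, which did not pass (adjusted p = 0.53), and it missed the threshold without CO replicate 1, 2 or 5 or HFD replicate 1, 4, 5 or 6. Smad2 and Smad5 had differences of -0.13 and -0.07 at their brightest probes that did not pass, and a second, dim Smad5 probe fell without overlap by 0.49 ± 0.10.

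Of the 4 genes that switch the signal off, Smurf1 and Smad7 fell and Smad6 (0.13 ± 0.20, SE) and Smurf2 were not called. Smurf1, a ubiquitin ligase for Smads and BMP receptors, was at -2.88, -2.65 and -2.42 (lowest, median and highest) in HFD samples and at -2.13, -2.03, -1.88, -2.17 and -2.21 in CO samples. It fell without overlap by 0.58 ± 0.09 (SE, adjusted p = 0.000181). Smad7, an inhibitory Smad that is itself a target gene, was at -0.91, -0.70 and -0.59 in HFD samples and at -0.67, -0.38, -0.69, -0.26 and -0.30 in CO samples. CO replicates 1 and 3 lay inside the HFD range, and the fall of 0.25 ± 0.10 (SE, adjusted p = 0.039) was lost under 14 of the 25 other ways of processing, including leaving out CO replicate 2, 4 or 5 or HFD replicate 1, 4, 5 or 6 (-0.25 to -0.20). At the brightest Smurf2 probe the difference was 0.02 ± 0.09, while its 2 other probes fell by 0.38 and 0.49.

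The rule also brought in 3 genes that only share a name with the families. Bmp1 is a procollagen proteinase that also cleaves chordin, and it fell by 0.46 ± 0.10 (SE, adjusted p = 0.00143), with falls of 0.51 and 0.56 at 2 other probes. Tgfbi, a matrix protein induced by TGF-beta, was at -1.53, -0.98 and -0.89 (lowest, median and highest) in HFD samples and at -0.41, -0.38, -0.40, -0.43 and -0.57 in CO samples. It fell without overlap by 0.63 ± 0.11 (SE, adjusted p = 0.000345). HFD replicate 1, the lowest for Tgfbi, was also the lowest for meningeal and fibroblast markers, whose mean level was -1.24 there and -0.67 to -0.40 on the other HFD arrays, against -1.12 to -0.63 on CO arrays. The same sample was the lowest of the HFD group for microglial, astrocyte, oligodendrocyte, choroid plexus, tanycyte, striatal and hypothalamic markers. It was the highest of that group for thalamic, neuronal and pituitary markers. Bmp2k, a kinase, rose by 0.35.

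Further lists by role held 117 genes that act with the members, of which 110 were tested, 33 rose and 40 fell. The share called was 66.4%, the same as over all genes, with 30.0% higher and 36.4% lower beside 22.2% and 44.1% of all genes, and the counts of single lists below are to be read against these shares. Among 21 known target genes 4 rose, 9 fell and 8 were not called, with a median difference of -0.15. The 4 Id genes, direct targets of BMP Smads, did not pass. Id1 was at 1.66, 1.86 and 2.03 (lowest, median and highest) in HFD samples and at 1.68, 1.75, 1.64, 1.71 and 1.82 in CO samples, a difference of 0.13 ± 0.08 (SE, adjusted p = 0.156). Id2, Id3 and Id4 had differences of -0.08 ± 0.06, 0.07 ± 0.13 and 0.05 ± 0.10 (SE). All 4 genes were well above background on every array, and their samples overlapped.

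The targets with the smallest adjusted p were Atoh8, Junb and Cdkn1a. Atoh8, a transcription factor gene induced by BMPs, was at -5.52 to -5.06 in HFD samples and -4.25 to -3.96 in CO samples and fell by 1.09 ± 0.09 (SE, adjusted p = 1.43e-06). Junb, which also responds to neuronal activity and stress, was at -5.57 to -4.76 in HFD samples and -4.19 to -3.34 in CO samples and fell by 1.36 ± 0.16 (SE, adjusted p = 2.81e-05). Cdkn1a, the cell cycle inhibitor p21, fell by 0.99 ± 0.20 (SE, adjusted p = 0.00104), with HFD replicate 3 inside the CO range.

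**Figure D4:**
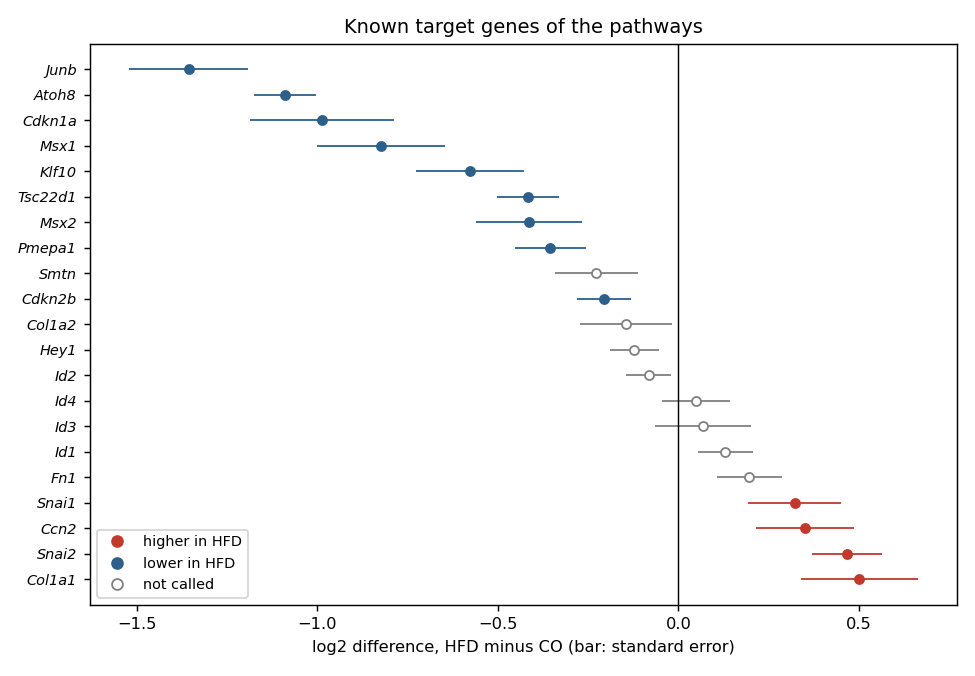
Log2 difference, HFD minus CO, of 21 known target genes, with the standard error as a bar (6 HFD and 5 CO samples; filled points passed the test). Junb lies lowest at -1.36 and Col1a1 highest at 0.50, and the 4 Id genes lie between -0.08 and 0.13 as open points.

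Of 14 co-receptors and receptor partners 4 rose and 7 fell. Tdgf1 encodes Cripto, a co-receptor for Nodal, and was at 0.47, 1.44 and 1.54 (lowest, median and highest) in HFD samples and at -1.79, -1.03, -1.06, -1.01 and -0.91 in CO samples. It rose without overlap by 2.44 ± 0.21 (SE, adjusted p = 2.69e-06). Hgs, an endosomal FYVE-domain protein, fell by 0.47 ± 0.07, and Dab2, an endocytic adaptor of TGF-beta receptors, rose by 0.64 ± 0.09. Zfyve16, a close relative of Zfyve9, rose by 1.28 ± 0.20 (SE, adjusted p = 0.00016) without overlap; it is named here after its values were seen.

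Among 19 further antagonists and ligand-processing genes 6 rose and 6 fell. Crim1, a BMP-binding transmembrane protein, fell by 1.69 ± 0.10 (SE, adjusted p = 1.93e-07), and Grem1, which encodes the BMP trap gremlin, rose by 1.29 ± 0.13 (SE, adjusted p = 5.9e-06). Tll2, a chordin proteinase of the Bmp1 family, was not well above background on any HFD array and was so on 5 of 5 CO arrays. Its signal was at least 1.56-fold lower in HFD, a bound set on each array by its dimmest detected probes. Of 10 other ligands, activators and carriers 2 rose and 4 fell, with Nodal lower by a fall of 1.01 ± 0.12 and Itgav, an integrin subunit that activates latent TGF-beta, higher by 0.55 ± 0.09. Amh, the anti-Müllerian hormone gene, was likewise well above background only on the CO arrays and at least 1.49-fold lower in HFD.

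Of 16 ubiquitin ligases, deubiquitinases and phosphatases 6 rose and 4 fell. Trim33, a ligase for Smad4, rose by 1.71 ± 0.16, Ppm1a, a Smad phosphatase, fell by 0.98 ± 0.10, and Wwp2, a ligase for Smads, fell by 0.49 ± 0.06. Of 20 nuclear partners of Smads 6 rose and 6 fell, with the coactivator Crebbp and the repressors Zeb1 and Zeb2 higher by 0.90, 0.68 and 0.78. The falls include Runx2, which was well above background on none of the HFD arrays and on 5 of 5 CO arrays. Its bound, set as for Tll2, was 0.93-fold and so gives no fall. Of 10 genes of signalling outside the Smads 5 rose and 4 fell. Rock1, a kinase that acts on the actin cytoskeleton, rose by 2.27 ± 0.12, Tab3, an adaptor of the kinase Tak1, rose by 2.44 ± 0.20, and its relative Tab1 fell by 0.61 ± 0.05. In each of these 9 genes the HFD and CO samples did not overlap, but they were named for having the smallest adjusted p of their lists. Over the 110 tested genes of all further lists, 50.9% had no overlap, beside 46.6% of all genes.

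The number of calls depended on processing. The Rank Product test, used in the study, ranks genes by fold change in every pair of an HFD and a CO sample. By this test and its limit for false positives, Acvr1c rose, Zfyve9 and Bmp10 fell and no other member was called, beside 4.65% of all genes. Bmp10 had entered only through the CO group, so its call is given as a description. Scaled to the spike-in RNA, 3 members rose and 54 fell, beside a median of -0.84 over all genes. The 3 that rose there were Acvr1c, Bmpr2 and Bmpr1a, at 1.88, 0.79 and 0.29. With the 2 CO samples whose striatal marker level lay in the HFD range, 10 members rose and 15 fell, beside 48.5% of all genes called; 8 of the rises and 11 of the falls were lost, and no called member turned direction.

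**Figure D5:**
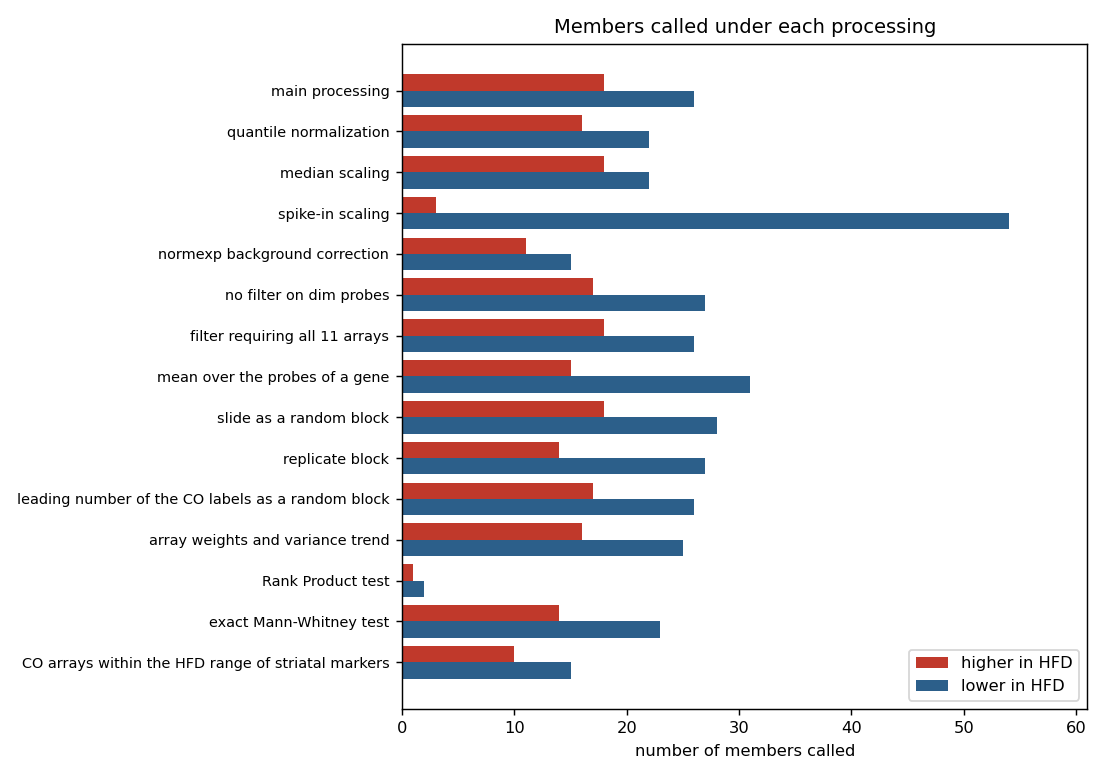
Number of members called higher (red) and lower (blue) in HFD under the main processing and 14 other ways of processing; the bars start at 0. The main processing called 18 higher and 26 lower, spike-in scaling 3 and 54, and the Rank Product test 1 and 2.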

How the data were processed

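Hypothalamic RNA of 6 HFD and 5 CO male offspring at postnatal day 21 was measured on single-colour Agilent mouse arrays. The files the authors deposited are scanner output, in which the values are the intensity of each spot on a linear scale, with the background already subtracted by Feature Extraction; the submitters' processing notes name version 10.8 and the file headers version 10.7.3.1. Other deposited columns hold the median signal and background of each spot, also as intensity, and the software's flags. How the authors scaled arrays to each other is not given in these sources. No pair of arrays held identical values.

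Control and outlier spots were left out, spots of a probe were averaged, and the log2 signal was set relative to the 75th percentile of its array. Accessions of 26369 of 39429 probes matched 19987 genes of a RefSeq table on GRCm38.p6, and 13060 probes stayed unnamed. Testing required a probe to be well above background on 5 or more of the 11 arrays (31790 probes, 17188 genes). The fit of HFD against CO used lmFit and eBayes of limma 3.58.1, with statmod 1.5.0, version 1.17.8 of data.table and R 4.3.3, two-sided. The p-values were adjusted after Benjamini and Hochberg for all genes, or for all probes where probes of a gene are set side by side; estimates are HFD minus CO. The number of arrays limits the precision. The scripts were tested on simulated data.

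The members, the lists and the spike-in scaling were chosen with earlier results of these data known. Named are Zfyve9, Bmp10, Acvr1c and Tgfbr1, members called with at least a 2-fold difference, the 2 of each role with the smallest adjusted p, members whose probes were called in opposite directions, the 3 genes of each further list with the smallest adjusted p, and Id1 to Id4 and Smad7; other members are given for completeness. One target gene that the rule also names is not reported here and was left out of its list. Alternatives were quantile, median and spike-in scaling, normexp, other filters, the mean over probes, blocks for slide, replicate number and the leading number of the CO labels, array weights, the Rank Product test (false positives under 0.001, 100 permutations), the exact Mann-Whitney test, and leaving out each array. Normexp (offset 50) used median signals, as no mean signals were in the files. The 8 spike-in probes were those well above background on every array, a choice made after their signals were seen. The fit with the CO arrays in the HFD range of striatal markers was added after the data were seen.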

Additional observations from a re-analysis of the deposited data

Results flagged for a closer look

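Within a group, 4 of 48 sets of values of the named members held a sample far from the others, where chance gives about 1 in 20. Zfyve9 was at -0.28 in CO replicate 4, while the other 4 CO samples lay between -0.78 and -0.70. Chrd was at -3.62 in CO replicate 1, and the other CO samples lay between -2.98 and -2.93. Tgfbi was at -1.53 in HFD replicate 1, with the other HFD samples between -1.10 and -0.89, and at -0.57 in CO replicate 5, with the other CO samples between -0.43 and -0.38. Each of these genes passed the test without the sample named.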

How the results depend on the processing

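Beside 18 members higher and 26 lower, spike-in scaling gave 3 and 54, normexp 11 and 15, the Rank Product test 1 and 2, and the CO arrays in the HFD range of striatal markers, which leave 2 CO samples, 10 and 15. Leaving out an array gave 14 to 18 higher and 23 to 28 lower. Over all genes, 11406 were called, against 6617 with normexp and 800 with the Rank Product test, and over all probes 21339, against 10096 with normexp. Of the gene calls 33.5% were higher, and 6.25% with spike-in scaling. With spike-in scaling 11 of the 18 members that rose turned to called falls, among them Smad1 (-0.35), Smad4 (-0.44) and Ltbp1 (-0.40), and Chrdl1 lay at -0.0015. With the mean over probes Smad1 and Smad4 turned to -0.26 and -0.32. No other called member turned direction. The Rank Product test did not call 21 of the 24 named members, and normexp did not call 7. Bmp8b and Inhbe also lost their calls with quantile normalization, at -0.25 and -0.11, and Acvr2a, Inhba and Tgfbr1 with spike-in scaling, at 0.29, 0.13 and 0.23. The cause was not tested. With a replicate block, 14 members rose and 27 fell and 10631 genes were called. The deviations of same-numbered samples correlated at -0.10 to 0.18, and 1 of 5 HFD samples correlated best with its own number. These few correlations gave no sign that the numbers pair the samples, but they are too few to settle it. Zfyve9 and Acvr1c kept their direction and call under every alternative run. Signal near the background limits Bmp10, Inhbc, Tll2, Amh, Runx2, Sim1 and the second Gdf7 probe. Of the 110 tested genes of the further lists, 101 were well above background on every array, and of the 20 nuclear partners of Smads 16 were. The counts of these lists rest in part on such dim genes.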
